A study of Homo sapiens with 4 samples.

Results

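The cytosolic ribosomal protein genes encode the proteins of the ribosome that translates messenger RNA outside mitochondria. They were taken from the count table by symbol, as RPL or RPS followed by a number and, where present, A, X, L, L1 or AL, together with RPLP0, RPLP1, RPLP2 and RPSA. This gave 85 of the 56304 gene rows, 53 for the large (60S) subunit and 32 for the small (40S) subunit. Of these, 8 are paralogs whose symbols end in L, L1 or AL: RPL3L, RPL7L1, RPL10L, RPL22L1, RPL26L1, RPL36AL, RPL39L and RPS27L. Pseudogenes, the RPS6K kinases and the mitochondrial ribosomal proteins were outside the rule, as were FAU, which makes a ribosomal protein fused to a ubiquitin-like protein, and RACK1. All libraries came from MV3, an established human melanoma line, carrying a histone H2B-GFP label. Spheroids held 50000 cells each, were embedded in collagen I, with no treatment named in the labels, and were punched on day 2, with a 1 mm punch for the core and then a 3 mm one for the invasion zone around it. Each zone had 2 libraries, numbered 1 and 2, and bulk RNAseq was used to ask which programs differ between the zones.

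A human ribosome holds 1 copy of nearly every ribosomal protein, and surplus protein that finds no ribosomal RNA is degraded, so cells make these proteins in near-equal amounts. Their messenger RNAs are abundant and short, and most begin with a C followed by a run of pyrimidines, the 5′ terminal oligopyrimidine (TOP) tract. This tract makes their translation depend on mTORC1, a growth-control kinase complex, through LARP1, a protein that binds it. Much of their control is therefore on translation, which RNA counts do not measure. The genes have also left very many processed pseudogenes, copies of their spliced RNA scattered through the genome.

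The start sites below are shown to set the tracts of paralogs beside those of their parent genes. Each window runs from 40 bases before the annotated start to 20 bases from it onward, read 5′ to 3′ on the gene's strand, from RefSeq on GRCh38.p14. Capitals mark the unbroken run of C and T that begins at the start. A TOP tract was counted where the start was a C followed directly by at least 4 further C or T, on the gene's strand only.
RPL22 (chr1:6199576-6199635, minus strand): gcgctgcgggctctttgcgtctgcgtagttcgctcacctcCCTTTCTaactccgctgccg
RPL22L1 (chr3:170870176-170870235, minus strand): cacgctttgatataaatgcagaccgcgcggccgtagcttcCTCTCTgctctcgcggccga
RPL26 (chr17:8383174-8383233, minus strand): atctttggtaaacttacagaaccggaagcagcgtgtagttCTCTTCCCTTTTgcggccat
RPL26L1 (chr5:172958689-172958748, plus strand, the first of 2 starts): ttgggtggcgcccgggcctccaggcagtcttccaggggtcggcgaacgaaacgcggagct
RPL36A (chrX:101390971-101391030, plus strand): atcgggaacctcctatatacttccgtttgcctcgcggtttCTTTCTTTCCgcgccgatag
RPL36AL (chr14:49620607-49620666, minus strand): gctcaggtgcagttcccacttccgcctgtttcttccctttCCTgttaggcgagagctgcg
RPL39 (chrX:119791611-119791670, minus strand): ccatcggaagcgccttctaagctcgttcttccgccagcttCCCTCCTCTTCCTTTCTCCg
RPS27 (chr1:153990722-153990781, plus strand): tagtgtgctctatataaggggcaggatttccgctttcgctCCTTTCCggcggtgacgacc
RPS27L (chr15:63157458-63157517, minus strand): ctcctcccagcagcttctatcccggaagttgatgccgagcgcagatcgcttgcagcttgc

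The parents RPL22, RPL26, RPL36A, RPL39 and RPS27 had tracts of 7, 12, 10, 19 and 7 bases. RPL3, the parent of RPL3L, had a run of only 4 bases and was not counted. Of the paralogs, RPL22L1 had a tract of 6 bases, whereas RPL26L1 and RPS27L had none and RPL36AL had only 3 bases. RPL7L1 and RPL10L also had none at their annotated starts, and RPL39L is not analysed here in this respect. Of the 68 ribosomal protein genes with a start in the RefSeq table, 47 (69.1%) had a TOP tract at one start or more. Counted by start, 47 of their 84 starts (56.0%) had one, beside 4.07% of all 35116 starts in that table. A match describes the letters at an annotated start, and an annotated start may lie some bases from the one used in these cells.

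The deposited values are raw counts of uniquely mapped reads, and library totals were 36363358 and 14983135 counts in core replicates 1 and 2 and 37591782 and 11789243 in invasion zone replicates 1 and 2. Values are given as CPM, the counts scaled by total and by edgeR's TMM factors, which lay between 0.9855 and 1.0091. CPM is a share of a library's RNA, so fewer cells of a type and less RNA per cell cannot be told apart. The sources used here do not say whether the 2 libraries of a zone came from separate spheroid cultures, and p-values then measure only the spread between these libraries. Of 7 melanoma markers, only MITF (1.71 to 3.37 CPM), MLANA (0.597 to 0.978) and PMEL (0.267 to 1.01) passed the count filter, while TYR and SOX10 had 0 counts in every library, which allows up to 0.254 CPM in the shallowest one. S100B had at most 3 counts and DCT at most 1. Among markers of other cells, PTPRC, EPCAM and KRT14 had at most 7 counts in any library. PECAM1, an endothelial marker, was at 18.1 and 7.43 CPM in the core and 5.23 and 0.926 in the invasion zone, and its part in the results was not tested.

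Uniquely mapped reads are a limit for this family, because a read that also matches a pseudogene is discarded. For each gene, the canonical transcript in GENCODE 44 was divided into overlapping 50-base words, and the share of words found elsewhere in hg38 was counted. Of the 85 genes, 35 had under 20% of their words elsewhere, 32 had 20 to 60% and 18 had 60% or more. RPL21 had 100% of its words elsewhere, RPS3A 98.2%, RPS27 95.0% and RPS10 94.6%. RPLP2, RPL35A and RPL38 had 0.3% or less. CPM values of different ribosomal protein genes were therefore not compared as expression levels, and the zones were compared within each gene.

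The whole family took slightly more of the invasion zone counts than of the core counts. Its genes held 1.77% and 1.64% of the counts of core replicates 1 and 2, and 1.87% and 1.88% in the invasion zone. Both invasion zone libraries were above both core libraries. The mean share was 1.70% ± 0.0936 in the core and 1.88% ± 0.0108 in the invasion zone (SD, n = 2), and the ratio of invasion zone to core was 1.06 in replicate 1 and 1.15 in replicate 2. By an exact two-sided permutation test, p was 0.333, the smallest p that 2 against 2 libraries can give, so this comparison cannot pass 0.05. Wilson 95% binomial intervals of each share were at most 0.005 percentage points to either side, and cover counting error only.

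Large subunit genes held 1.03% and 0.952% of core counts and 1.08% and 1.09% of invasion zone counts. Small subunit genes held 0.743% and 0.685% in the core and 0.790% and 0.797% in the invasion zone. Each subunit thus showed the same order of libraries, with the core of replicate 2 lowest. The log2 ratio of large to small subunit counts was 0.47 and 0.48 in the core and 0.45 and 0.45 in the invasion zone, lower by a mean of -0.02 with no overlap (exact permutation p = 0.333).

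**Figure D1:**
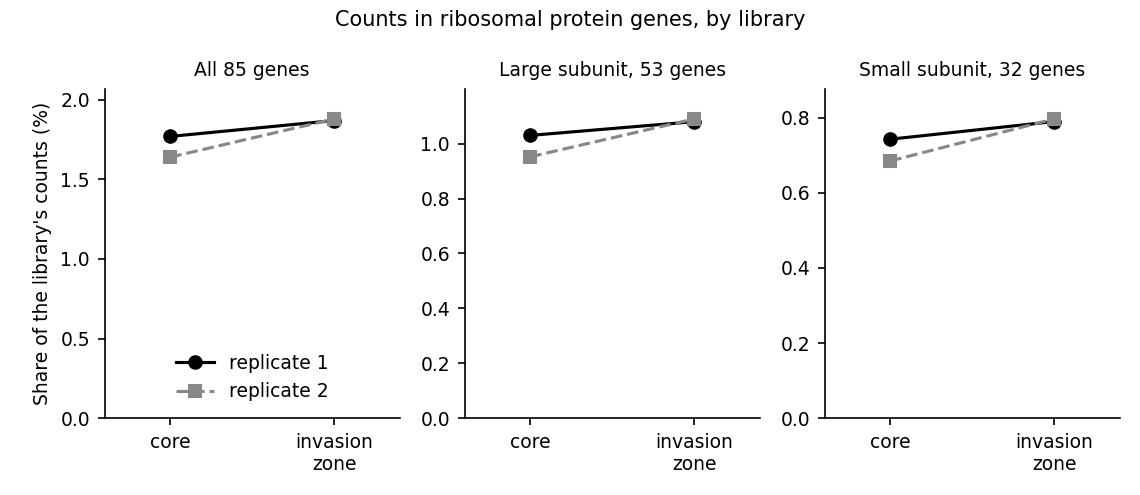
Share of each library's counts (%, vertical axes from 0) in all 85 ribosomal protein genes, the 53 large subunit genes and the 32 small subunit genes, in the core and the invasion zone; each line joins the libraries of 1 replicate number. The shares of all 85 genes go from 1.77% to 1.87% in replicate 1 and from 1.64% to 1.88% in replicate 2.

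Gene by gene, the family was shifted towards the invasion zone by a small amount, with no single gene called by edgeR without a replicate term. Of the 85 genes, 83 passed the count filter, and 2 paralogs, RPL3L and RPL10L, did not. The log2 fold change, invasion zone over core, was positive for 67 of the 83 and negative for 16. Its median was 0.15, beside -0.01 over all 15529 genes tested, and its quartiles were 0.05 and 0.37. Within replicates, the median log2 difference was 0.12 in replicate 1 and 0.26 in replicate 2. The difference was positive in both replicates for 57 of the 83 genes (68.7%, beside 39.9% of all genes) and negative in both for 12 (14.5%, beside 40.8%).

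By edgeR's quasi-likelihood test with Benjamini-Hochberg adjustment over all genes, 0 of the 83 genes reached an adjusted p under 0.05 with a 2-fold change, and 0 that adjusted p alone. The background was the same, with 0% of all genes tested called by either rule. This test had no replicate term. It missed all changed genes in simulated data with a replicate shift like that of the core libraries. An absence of calls therefore does not show an absence of change, and counts with the replicate number as a block are given further below. The smallest adjusted p of the family was 0.130, for RPL26L1. At an unadjusted p under 0.05, 11 of the 83 were higher in the invasion zone and 0 lower, where 11.9% of all genes tested were higher and 12.4% lower. DESeq2 at an adjusted p under 0.05 called 2 of the 83 higher, RPL26L1 and RPL39L, and 0 lower, where it called 4.73% of all genes higher and 5.34% lower. Ordered by library, 30 of the 83 had both invasion zone values above both core values and 4 had both below, where the background was 28.1% above and 30.3% below.

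The size of the median shift rested on single libraries. Without core replicate 1 the median was 0.34, without core replicate 2 it was 0.04, without invasion zone replicate 1 it was 0.07 and without invasion zone replicate 2 it was 0.21. The number of genes with a positive log2 fold change was 73, 46, 47 and 68 in the same order. The median gene of the family was lower in replicate 2 than in replicate 1 in both zones, with a log2 difference, replicate 2 minus replicate 1, of -0.25 in the core and -0.11 in the invasion zone, beside 0.00 and -0.02 over all genes, although the summed share of the family was 1.87% and 1.88% in the invasion zone. Replicate 2 was also the shallower sequencing in both zones, and depth and replicate cannot be told apart.

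**Figure D2:**
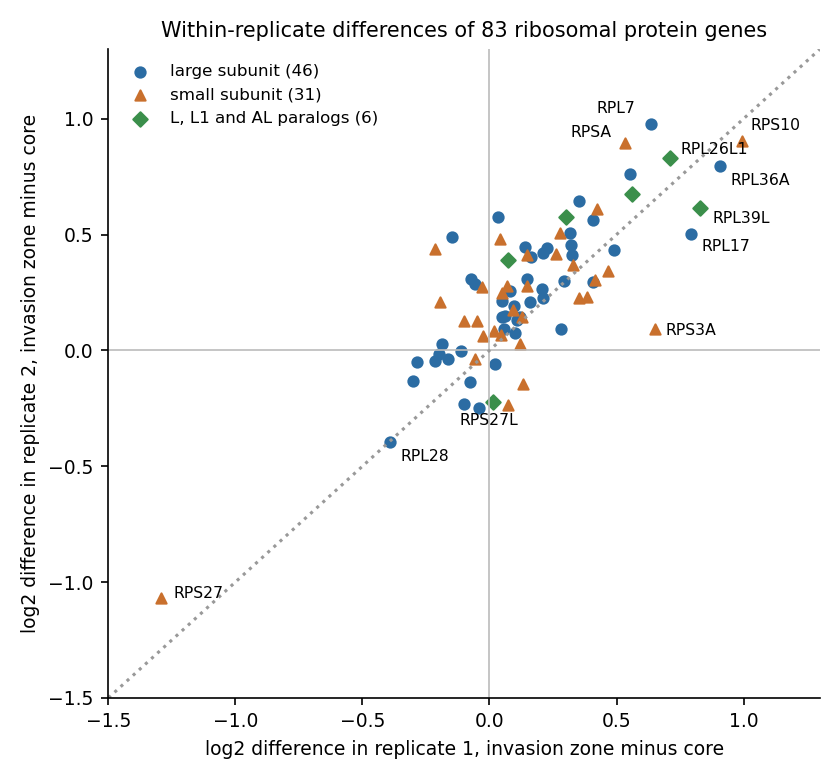
Within-replicate log2 differences, invasion zone minus core, of the 83 genes tested, replicate 1 on the horizontal axis and replicate 2 on the vertical axis; circles are large subunit genes, triangles small subunit genes and diamonds paralogs, and the dotted line marks equal differences. Most points sit above 0 on both axes (57 of 83), and RPS27 stands alone at -1.29 and -1.07.

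Among the large subunit genes, 39 of the 51 tested had a positive log2 fold change, with a median of 0.18 (0.12 in replicate 1 and 0.29 in replicate 2). Both invasion zone libraries were above both core libraries for 23 of the 51 and below for 3, where the background was 28.1% and 30.3%. The genes that took the most counts were RPL8, RPL13 and RPL3. RPL8, a protein close to the catalytic centre that forms peptide bonds, had 810 and 948 CPM in the core and 898 and 1173 in the invasion zone. RPL3, another protein near that centre, had 426 and 564 CPM in the core and 493 and 677 in the invasion zone. RPL13 had 555 and 677 CPM in the core and 488 and 691 in the invasion zone. Within replicates, RPL13 had no common direction, at -0.19 and 0.03 on the log2 scale. In all 3 the zones overlapped, and replicate 2 was higher than replicate 1 in each zone. Their log2 fold changes were 0.24 ± 0.19 for RPL8, 0.24 ± 0.23 for RPL3 and -0.07 ± 0.22 for RPL13 (SE).

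The acidic stalk of the large subunit, which recruits elongation factors, is built from RPLP0, RPLP1 and RPLP2. RPLP0 had 478 and 455 CPM in the core and 599 and 605 in the invasion zone. RPLP2 had 357 and 321 CPM in the core and 417 and 436 in the invasion zone. The zones did not overlap for either, and the log2 fold changes were 0.37 ± 0.14 and 0.33 ± 0.14 (SE), with edgeR adjusted p of 0.186 and 0.225. RPLP1 had 391 and 303 CPM in the core and 425 and 334 in the invasion zone, and there the zones overlapped. RPL5 and RPL11, which with 5S ribosomal RNA can bind MDM2 when ribosome assembly fails, had log2 fold changes of 0.18 ± 0.14 and 0.12 ± 0.21. RPL35, at the exit of the tunnel for the growing protein, had 197 and 203 CPM in the core and 276 and 275 in the invasion zone, for a log2 fold change of 0.46 ± 0.13 (edgeR adjusted p = 0.146). The zones did not overlap, and the replicates of RPL35 lay close together in each zone.

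A few large subunit genes had lower values in the invasion zone. RPL28 had 426 and 304 CPM in the core and 325 and 231 in the invasion zone, a log2 difference of -0.39 in each replicate. The zones overlapped, since core replicate 2 was below invasion zone replicate 1, and the edgeR adjusted p was 0.383. RPL36 had 392 and 368 CPM in the core and 318 and 335 in the invasion zone, and RPL13A 402 and 366 in the core and 330 and 353 in the invasion zone. For both, the invasion zone libraries were below the core libraries, by log2 fold changes of -0.22 ± 0.14 and -0.17 ± 0.14 (SE). RPL15 and RPL18 followed at -0.16 ± 0.21 and -0.14 ± 0.17, with overlapping zones. RPL37 was the third large subunit gene with both invasion zone libraries below the core, at 182 and 168 CPM against 159 and 166.

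Among the small subunit genes, 28 of 32 had a positive log2 fold change, with a median of 0.14 (0.11 in replicate 1 and 0.23 in replicate 2). Both invasion zone libraries were above both core libraries for 7 of the 32 and below for 1, RPS9, so the share above was under the 28.1% of all genes. Without the paralogs the medians of the large and small subunits were both 0.14. The small subunit median was 0.33, 0.01, -0.04 and 0.19 without core replicates 1 and 2 and invasion zone replicates 1 and 2, and the large subunit median was 0.34, 0.06, 0.13 and 0.26.

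RPS19 and RPS6 were among the genes that took the most counts. RPS19, the gene most often mutated in Diamond-Blackfan anaemia, had 1075 and 1087 CPM in the core and 1053 and 1313 in the invasion zone, with no common direction. RPS6, the classic target of the S6 kinases, had 832 and 818 CPM in the core and 922 and 993 in the invasion zone. The RPS6 zones did not overlap, and its log2 fold change was 0.21 ± 0.14 (SE, edgeR adjusted p = 0.399). RPS2, at the entry of the messenger RNA channel, had 156 and 163 CPM in the core and 209 and 248 in the invasion zone, for a log2 fold change of 0.52 ± 0.15 (edgeR adjusted p = 0.150). RPSA, which is also known as the laminin receptor precursor, had 24.8 and 18.8 CPM in the core and 35.8 and 34.9 in the invasion zone. Its log2 fold change was 0.70 ± 0.19 (edgeR adjusted p = 0.142), and 77.7% of the words of RPS2 and 75.6% of those of RPSA occur elsewhere in the genome.

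RPS27 stood apart from the family. This gene (chr1:153990762-153992155, plus strand, GENCODE 44 on GRCh38) encodes a small zinc-finger protein of the 40S subunit. It had 50.7 CPM in core replicate 1 and 19.1 in core replicate 2, and 20.7 and 9.09 in the invasion zone, from 1814, 288, 775 and 108 counts. The invasion zone was lower within each replicate, by -1.29 and -1.07 on the log2 scale, although core replicate 2 was just below invasion zone replicate 1. The log2 fold change was -1.21 ± 0.57 (SE) with an edgeR adjusted p of 0.260 and a DESeq2 adjusted p of 0.111. Neither test had a replicate term. With the replicate number as a block RPS27 was called lower, but the sources used here do not say what a number marks. RPS27 was the only one of the 83 genes with a change of over 2-fold. Of its 50-base words, 95.0% occur elsewhere, and which reads gave its counts was not examined. The 14 rows of RPS27 pseudogenes together held 42 and 4 counts in the core and 29 and 2 in the invasion zone. Leaving out core replicate 2 or invasion zone replicate 1 gave an adjusted p under 0.05 and log2 fold changes of -1.74 and -1.95, and leaving out core replicate 1 or invasion zone replicate 2 did not.

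The highest log2 fold changes of the family, those of RPS10, RPL36A and RPL7, were at low counts. RPL26L1 and RPL39L came next, at 0.77 and 0.71, with at least 271 counts in every library. RPS10 had 3.02 and 0.663 CPM in the core and 6.03 and 1.26 in the invasion zone, from only 108, 10, 226 and 15 counts, with a log2 fold change of 0.97 ± 0.91 (SE). Its replicates differed more than its zones, the value turned to -0.61 without invasion zone replicate 1, and 94.6% of its words occur elsewhere. RPL36A had 1.96 and 3.58 CPM in the core and 3.68 and 6.23 in the invasion zone, for a log2 fold change of 0.84 ± 0.46. RPL7 had 3.38 and 3.45 CPM in the core and 5.26 and 6.82 in the invasion zone, for a log2 fold change of 0.81 ± 0.29. RPL36A and RPL7 did not overlap between zones, with edgeR adjusted p of 0.317 and 0.176. RPS10, RPL36A and RPL17 share exon sequence on their strand with the annotated readthrough genes RPS10-NUDT3, RPL36A-HNRNPH2 and RPL17-C18orf32, each at 0 counts in the table, and the sources used here do not say how reads in the shared exons were counted.

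The paralogs had a higher median than the rest of the family. The 6 tested had a median log2 fold change of 0.52 (0.43 in replicate 1 and 0.59 in replicate 2), beside 0.14 for the 77 genes without them and 0.24 for the 8 parent genes. All of the 6 but RPL36AL had a mean under 100 CPM in the core. The 32 family genes under that level, these paralogs among them, had a median of 0.37, and level was not separated from being a paralog. Values differed among the paralogs, and for 4 of the 6, RPL7L1, RPL22L1, RPL26L1 and RPL39L, both invasion zone libraries were above both core libraries. The same held for 26 of the 77 other genes of the family and for 28.1% of all genes.

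RPL26L1 (chr5:172958729-172969771, plus strand) encodes a close copy of RPL26, which contacts nascent chains near the exit tunnel. It had 21.0 and 18.0 CPM in the core and 34.5 and 32.0 in the invasion zone. The replicates of a zone were close and the zones clearly apart, with a log2 fold change of 0.77 ± 0.17 (SE), a 1.70-fold ratio, at an edgeR adjusted p of 0.130 and a DESeq2 adjusted p of 0.0216. Its parent RPL26 had 77.1 and 41.0 CPM in the core and 102 and 50.3 in the invasion zone. The log2 fold change of RPL26 was 0.37 ± 0.43, with overlapping zones. Of the words of RPL26L1, 52.9% occur elsewhere, and of those of RPL26, 53.7%.

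RPL39L (chr3:187120948-187180908, minus strand) is a paralog best known from male germ cells, where it replaces RPL39, and is also expressed in many cancer lines. It had 19.8 and 24.9 CPM in the core and 35.1 and 38.0 in the invasion zone. The zones did not overlap, and the log2 fold change was 0.71 ± 0.18 (SE), at an edgeR adjusted p of 0.135 and a DESeq2 adjusted p of 0.0454. RPL39 had 13.6 and 4.51 CPM in the core and 16.6 and 4.80 in the invasion zone, so that its replicates differed far more than its zones, and 93.8% of its words occur elsewhere against 2.6% for RPL39L.

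RPL22L1 (chr3:170864875-170870208, minus strand) is the paralog of RPL22, whose protein is known to hold down RPL22L1 levels. RPL22L1 had 22.2 and 17.9 CPM in the core and 32.9 and 28.6 in the invasion zone, for a log2 fold change of 0.61 ± 0.19 (SE, edgeR adjusted p = 0.155). RPL22 had 58.9 and 55.2 CPM in the core and 68.1 and 64.6 in the invasion zone, for a log2 fold change of 0.22 ± 0.14. Neither gene overlapped between zones. The paralog had the larger log2 difference in each replicate, 0.56 and 0.68 against 0.21 and 0.23 for RPL22. RPL7L1 had 53.7 and 46.0 CPM in the core and 66.2 and 68.4 in the invasion zone, for a log2 fold change of 0.43 ± 0.15 (edgeR adjusted p = 0.171).

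RPL36AL and RPS27L did not separate the zones. RPL36AL had 194 and 121 CPM in the core and 205 and 159 in the invasion zone. RPS27L, a gene known as a p53 target, had 63.9 and 55.0 CPM in the core and 64.5 and 47.0 in the invasion zone, where RPS27 was lower. RPL3L, known from striated muscle, had 9 and 1 counts in the core and 5 and 1 in the invasion zone. RPL10L, known from testis, had 8 and 2 counts in the core and 3 and 0 in the invasion zone.

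The ratio of each paralog to its parent was compared on the log2 scale, invasion zone minus core, by an exact permutation test over the libraries. RPS27L over RPS27 differed by 1.08 (1.31 and 0.85 within replicates), with every invasion zone library above every core library. RPL22L1 over RPL22 differed by 0.40 (0.35 and 0.45), also without overlap, and RPL7L1 over RPL7 by -0.37 (-0.33 and -0.41), below the core in both. For each of these 3 ratios the exact permutation p was 0.333, again the smallest possible. RPL26L1 over RPL26 (0.42), RPL39L over RPL39 (0.53) and RPL36AL over RPL36A (-0.62) overlapped between zones, with an exact permutation p of 0.667 each. With pseudogene counts added to both genes, RPL7L1 over RPL7 differed by -0.04 and the zones overlapped. Adjusted over the 6 ratios, every permutation p was 0.667, and the differences had no common sign.

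**Figure D3:**
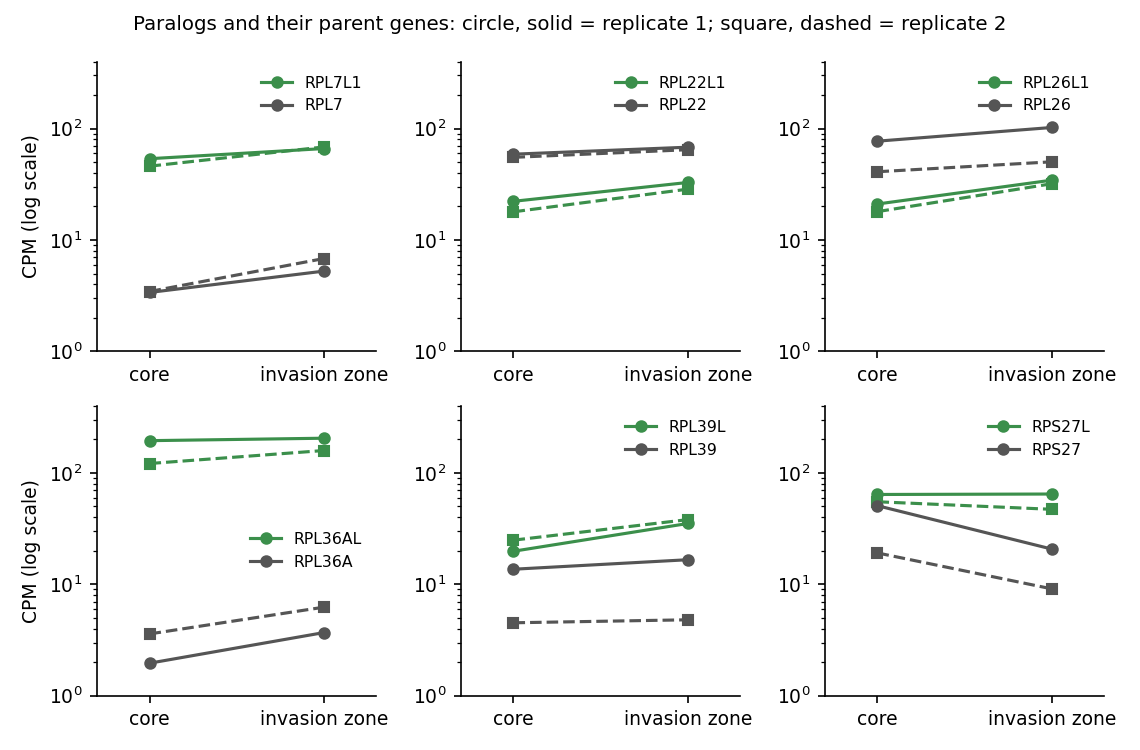
CPM (log axis) of the 6 tested paralogs (green) and their parents (grey) in the core and the invasion zone; circles with solid lines are replicate 1 and squares with dashed lines replicate 2. RPL7L1, RPL22L1, RPL26L1, RPL36AL and RPL39L are higher in the invasion zone in both replicates. RPS27 goes from 50.7 to 20.7 and from 19.1 to 9.09.

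The median zone difference was higher in genes with few words of their own. Genes with 60% or more of their words elsewhere (18 tested) had a median log2 fold change of 0.40, those with 20 to 60% (32 tested) 0.16 and those with under 20% (33 tested) 0.13. These limits were chosen after the values were seen. Over the 83 genes, Spearman's rho was 0.32 between this share and the log2 fold change, -0.40 between mean level and log2 fold change and -0.61 between this share and the mean level. The genes share the same 4 libraries, and the 3 measures move together, so they were not separated. The 32 genes with a mean under 100 CPM in the core had a median of 0.37 and the other 51 a median of 0.13. Between replicates, rho was 0.70 for the within-replicate differences.

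**Figure D4:**
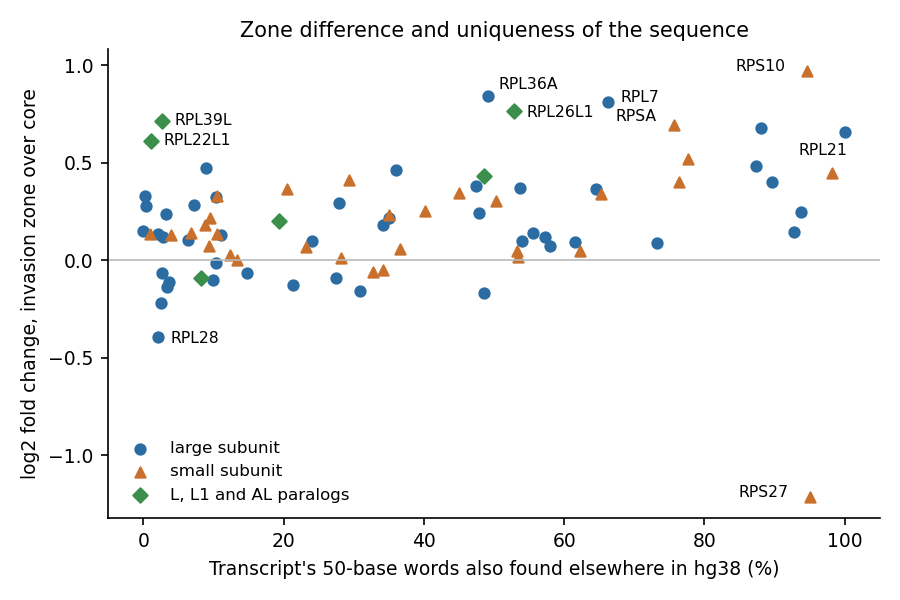
Log2 fold change, invasion zone over core, of the 83 genes (vertical axis) against the share of 50-base words of the transcript found elsewhere in hg38 (%, horizontal axis), with symbols for large subunit genes, small subunit genes and paralogs. The 18 genes at 60% or more have a median of 0.40, and RPS27 lies apart at -1.21.

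The 1124 rows of processed pseudogenes of these genes, matched by symbol to 77 of them, held 0.0309% and 0.0184% of the counts in the core and 0.0368% and 0.0232% in the invasion zone. Their zones overlapped (exact permutation p = 0.667), and they were small beside the 1.64% to 1.88% of the genes themselves. Genes with a TOP tract (47) had a median log2 fold change of 0.13, and the 20 tested genes with a start but no tract had 0.32. RPL26L1, without a tract, and RPL22L1, with one, were among the genes with higher values.

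Other genes of ribosome production and translation were set beside the family. Genes of ribosome assembly had a higher median than the ribosomal proteins. This list runs from processing of ribosomal RNA in the nucleolus to export and late maturation of the subunits. Of 59 tested, 58 had a positive log2 fold change, and both invasion zone libraries were above both core libraries for 55 and below for 0, where 28.1% and 30.3% of all genes were. Their median log2 fold change was 0.73 (0.73 in replicate 1 and 0.70 in replicate 2), against 0.15 for the ribosomal proteins. EdgeR called 0 of the 59 at an adjusted p under 0.05 and 48 at an unadjusted p under 0.05, all higher, and DESeq2 called 32 higher and 0 lower at an adjusted p under 0.05, where it called 4.73% and 5.34% of all genes. Without core replicate 1 the median was 0.57, and without invasion zone replicate 2 it was 0.55. NOP16, a nucleolar protein of 60S assembly, had 50.3 and 76.7 CPM in the core and 121 and 177 in the invasion zone, for a log2 fold change of 1.23 ± 0.28 (SE). RRS1, which helps load the 5S particle, had 28.3 and 53.0 CPM in the core and 72.0 and 114 in the invasion zone, for a log2 fold change of 1.20 ± 0.37. At the low end, NMD3, the export adaptor of the 60S subunit, was at 0.13 and RIOK2, a kinase of late 40S maturation, at -0.03.

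RNA polymerase I, which makes ribosomal RNA, showed the same order of zones. Of 14 genes tested, 12 had both invasion zone libraries above both core libraries and 0 below, beside 28.1% and 30.3% of all genes, with a median log2 fold change of 0.47. CD3EAP, a subunit of the enzyme, had 5.98 and 9.68 CPM in the core and 16.8 and 19.0 in the invasion zone, for a log2 fold change of 1.21 ± 0.29 (SE). POLR1E, another subunit, had 24.4 and 34.0 CPM in the core and 48.2 and 60.3 in the invasion zone, for a log2 fold change of 0.90 ± 0.23. TAF1C and POLR1D were at -0.03 each. DESeq2 called 2 of the 14 at an adjusted p under 0.05, both higher, beside 4.73% of all genes.

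Long RNAs that host small nucleolar RNAs had a TOP tract in 3 of the 9 with a start in the RefSeq table. Of 10 tested, 5 were above the core in both invasion zone libraries and 1 below, beside 28.1% and 30.3% of all genes, with a median log2 fold change of 0.33. SNHG16 had 45.4 and 68.1 CPM in the core and 81.3 and 114 in the invasion zone, and SNHG1 had 20.6 and 22.4 in the core and 35.2 and 37.2 in the invasion zone. EPB41L4A-AS1 was the one below, at -0.48 ± 0.25, and SNHG5 was at 0.02.

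Translation factors whose messenger RNAs carry TOP tracts, as those of the ribosomal proteins do, were also examined. Of the 9 with a start in the RefSeq table, 8 had a tract. Of 13 tested, 3 were above in both invasion zone libraries and 4 below, close to the 28.1% and 30.3% of all genes, with a median log2 fold change of 0.04. EEF1B2, a subunit of the exchange factor for elongation factor 1A, had 48.9 and 46.9 CPM in the core and 65.0 and 66.7 in the invasion zone, and EIF3E 237 and 250 in the core and 277 and 338 in the invasion zone. EEF1A1, the elongation factor itself, had 279 and 308 CPM in the core and 248 and 250 in the invasion zone, and TPT1 598 and 271 in the core and 348 and 175 in the invasion zone. FAU and RACK1 also had positive values. FAU had 95.4 and 103 CPM in the core and 124 and 134 in the invasion zone, for a log2 fold change of 0.38 ± 0.14. RACK1 was at 0.13.

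Of the regulators of mTORC1 and TOP translation, 8 of 23 were above in both invasion zone libraries and 3 below, beside 28.1% and 30.3% of all genes, and the median log2 fold change was 0.11. MYC, a transcription factor that drives ribosome production, had 82.2 and 105 CPM in the core and 158 and 182 in the invasion zone, for a log2 fold change of 0.86 ± 0.18 (SE). EIF4E, the cap-binding protein, had 28.3 and 37.4 CPM in the core and 51.0 and 64.2 in the invasion zone, for a log2 fold change of 0.81 ± 0.21. DDIT4, a stress-induced inhibitor of mTORC1, had 126 and 202 CPM in the core and 37.0 and 15.6 in the invasion zone, for a log2 fold change of -2.62 ± 0.46. The zones did not overlap in these 3 genes, which were named as extremes of the list. DESeq2 passed all 3 at an adjusted p under 0.05, whereas edgeR passed none. Of the 23 genes, DESeq2 called 3 higher and 1 lower, where it called 4.73% and 5.34% of all genes. DEPTOR, another mTORC1 inhibitor, was at or under 21 counts in each library.

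Genes that rescue stalled ribosomes and survey their products had a median log2 fold change of 0.23, with 8 of 16 above in both invasion zone libraries and 3 below, beside 28.1% and 30.3% of all genes. ABCE1, which splits ribosomes for reuse, had 70.4 and 102 CPM in the core and 143 and 183 in the invasion zone, and IFRD2, which occupies inactive ribosomes, had 61.7 and 101 in the core and 116 and 187 in the invasion zone. ANKZF1, which releases stalled chains, had 57.7 and 84.2 CPM in the core and 31.5 and 31.8 in the invasion zone, for a log2 fold change of -1.16 ± 0.22. GIGYF2 was at -0.16.

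**Figure D5:**
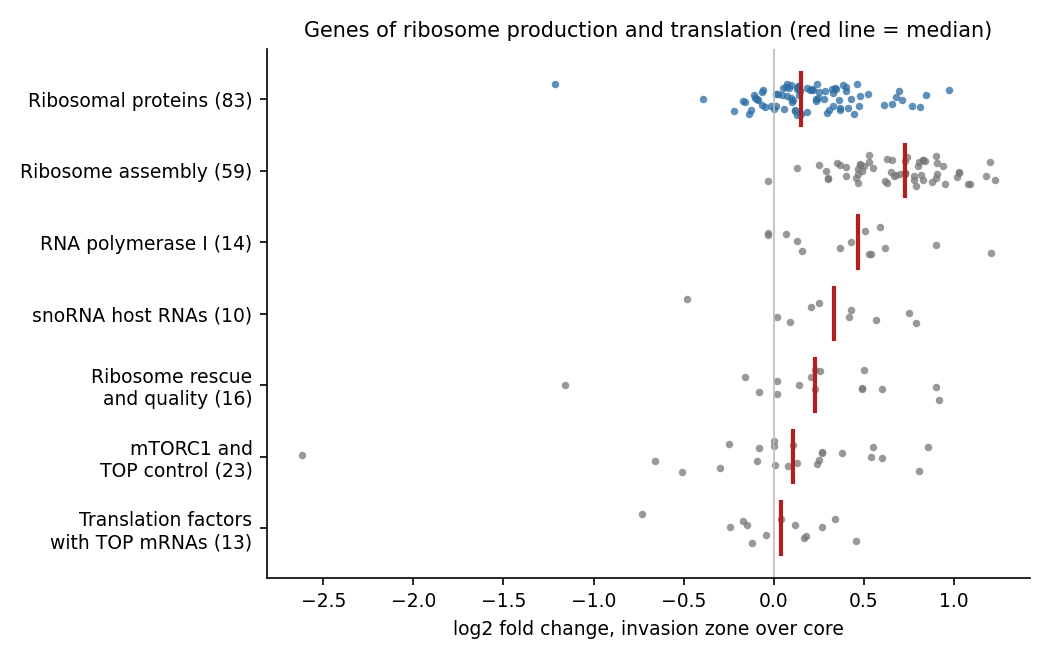
Log2 fold change, invasion zone over core, of single genes (points, spread vertically for view) in the ribosomal protein family and 6 lists of other genes of ribosome production and translation, with the number tested in brackets and the median as a red line. The median is 0.15 for the ribosomal proteins and 0.73 for ribosome assembly.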

How the data were processed

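Bulk RNAseq was analysed for 2 core and 2 invasion zone libraries of MV3 H2B-GFP spheroids. The table deposited by the authors holds raw counts. The authors prepared the libraries with a SMARTer low-input kit, removed ribosomal RNA reads with Bowtie, aligned the rest to hg38 with STAR and used HTSeq-count on reads that mapped uniquely. Not given in the sources used here are versions, annotation release and strand setting. DESeq2 was the authors' test of the zones. Here, 2 repeated rows without counts were left out, leaving 56304 rows. Depth ranged from 11789243 to 37591782 counts per library, and the shallower replicate 2 libraries carry more counting error.

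In R 4.3.3, edgeR 4.0.16 kept 15529 genes by its default filter (15 counts in total, and in at least 2 libraries the CPM that 10 counts make in a library of median size). Zones were compared by the quasi-likelihood test after TMM scaling, without a replicate term, with Benjamini-Hochberg adjustment over all 15529 genes. Calls needed an adjusted p under 0.05 with a 2-fold change. SE is the absolute log2 fold change divided by the square root of the F statistic of this test. Within-replicate differences are of log2 CPM, with 0.5 added to each count. Shares and ratios were compared by exact two-sided permutation over the libraries. DESeq2 1.42.0 and limma 3.58.1 were alternatives, beside other scalings and filters, a GC content and length correction, a replicate block, pseudogene rows and each library left out. The procedure was tested on simulated data. There, the test without a replicate term missed all changed genes once a replicate shift like that of the core libraries was added. An absence of calls therefore does not show an absence of change. With a replicate block, the test recovered most of the changed genes. The simulated shift was identical in both zones, whereas in the data deviations of same-numbered libraries had a correlation of 0.564 over all genes. That recovery therefore does not show how well a block does in these data. Gene positions are from GENCODE 44, which holds 98.1% of the identifiers.

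The members and lists were chosen with earlier results of these data known. Named genes were the 6 highest and 6 lowest by log2 fold change, the 3 of each subunit with the most CPM, every paralog and parent, and the 2 highest and 2 lowest of each other list, with FAU and RACK1. Of the genes this rule names, 2 are not reported here. Other ribosomal protein genes were chosen after their values were seen.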

Additional observations from a re-analysis of the deposited data

How the results depend on the processing

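Counts of calls depended on the test far more than the sizes did. Over all genes, the numbers called higher and lower at 2-fold were 0 and 0 under the reported test and also under RLE, upper-quartile or no scaling, a minimum of 10 counts in every library, limma voom, the GC content and length correction and the summing of pseudogene rows. They were 427 and 846 with no count filter beyond 1 count, 341 and 549 with DESeq2, 454 and 909 at an unadjusted p, and from 13 to 632 and from 125 to 1137 with 1 library left out. Of the ribosomal protein genes, 0 were called higher and 1 lower (RPS27) with no count filter, and 0 to 1 higher (RPS10, without invasion zone replicate 2) and 0 to 1 lower (RPS27) with 1 library left out. With no fold minimum, 3 were higher and 1 lower with no count filter, where 1148 and 1425 of all genes tested were. With DESeq2 and no fold minimum, 2 were higher and 0 lower, where 734 and 829 of all genes tested were. At an unadjusted p with the 2-fold minimum, 0 of the ribosomal protein genes were higher and 0 lower. Of the other lists' genes, 9 higher and 2 lower were called at 2-fold with no filter, beside 427 and 846 of all genes. With DESeq2 the numbers were also 9 and 2, beside 341 and 549 of all genes. Of the 59 ribosome assembly genes tested, DESeq2 called 8 at 2-fold, where it called 890 of all 15529 genes.

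The replicate numbers are shared by the zones, but the sources used here do not say that a number marks a shared spheroid or batch, and there are only 2 pairs. Deviations from the zone mean of libraries with the same number had a correlation of 0.564 over all genes and 0.925 over the 83 ribosomal protein genes. With the replicate number as a block, 530 genes were called higher and 1097 lower at 2-fold, and with the block and the GC content and length correction 761 and 971. Of the ribosomal protein genes, 0 were then called higher and 1 lower (RPS27) at 2-fold, and with no fold minimum 32 higher and 2 lower with the block, where 3010 and 3009 of all 15529 genes were, and 27 and 2 with the correction as well, where 3881 and 2583 of all genes were. Of the other lists' genes, 9 higher and 2 lower were called at 2-fold with the block, beside 530 and 1097 of all genes. With the correction as well the numbers were 17 and 1, beside 761 and 971 of all genes.

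The median log2 fold change of the ribosomal protein genes was 0.12 to 0.18 under the scalings, filters and tests tried, 0.14 for the genes with under 60% of words elsewhere and 0.14 without paralogs, both chosen after seeing the data. With 1 library left out it ranged from 0.04 to 0.34, that of the large subunit from 0.06 to 0.34 and that of the small subunit from -0.04 to 0.33. With the GC content and length correction it was 0.16, beside 0.08 over all genes. The share difference stayed positive, at 0.11 to 0.24 percentage points with 1 library left out, and the subunit ratio negative. With 1 library left out, RPL26L1 over RPL26 ranged from -0.04 to 0.88, RPL36AL over RPL36A from -1.40 to 0.15 and RPL39L over RPL39 from -0.43 to 1.50.

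The sign of some named genes changed, and the cause was not tested. With the GC content and length correction, RPL18 was at 0.01, RPL13 at 0.10, RPL10 at 0.00 and TAF1C at 0.33, and with the replicate block as well RPL18 was at 0.01, RPL13 at 0.08 and TAF1C at 0.32. SNHG5 was at -0.01 with upper-quartile scaling, the stricter filter and the replicate block, at -0.06 with limma voom, at -0.02 with the correction and at -0.06 with the correction and the block. With 1 library left out, log2 fold changes ranged from -0.61 to 2.51 for RPS10, -0.40 to 0.05 for RPL15, -0.27 to 0.03 for RPL18, -0.01 to 0.47 for RPL3, -0.34 to 0.16 for RPL13, -0.04 to 0.28 for RPS19, -0.31 to 0.10 for RPL10, -0.24 to 0.91 for RPL26, -0.09 to 0.59 for RPL36AL, -0.95 to 1.28 for RPL39, -0.34 to 0.12 for RPS27L, -0.21 to 0.22 for SNHG5, -0.21 to 0.13 for POLR1D, -0.15 to 0.13 for TAF1C, -0.11 to 0.04 for RIOK2 and -0.70 to 0.04 for DEPTOR.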
